A study of Rattus norvegicus with 6 samples.

Results

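Interferon-induced genes were examined in blood vessel endothelium of rat skin with and without interleukin-33 (IL-33). The group was chosen by name as 38 well-known targets of interferon, of which 35 had a probeset, a set of array probes for 1 gene, among the 15037 genes on the array. Gbp4, Ifi44l and Xaf1 had none. Zbp1 and Ifit1 were too dim to be tested, which left 33 members among the 11577 genes tested. Endothelial cells came from abdominal skin of 3 Il33 knockout rats (animals 28, 27 and 52) and 3 wildtype rats (animals 34, 45 and 37), all Sprague-Dawley. Each genotype held 2 females and 1 male (animals 52 and 37). The skin was digested with collagenase and DNase, leukocytes bearing CD45 and lymphatic cells bearing Lyve-1 were removed with magnetic beads, and cells bearing CD31 were kept. The labels name no drug or infection in either group. Age, the way the allele was made and whether other cell types lacked it are not stated in the labels.

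Interferons are cytokines that alert cells to infection. Type I interferons act through a receptor and its kinases on a complex with Stat2 and Irf9 that binds the interferon-stimulated response element, and interferon gamma acts through the gamma-activated site. The induced proteins block viral entry, translation and release, sense foreign nucleic acid, or amplify and end the response, and endothelium is known to respond to both kinds of interferon.

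Both elements were looked for in RefSeq promoter windows of GRCr8, each running from 250 bases before to 50 bases after a gene's start. Of the 38 members 30 had a window. Zbp1, Adar, Ifit1, Ifit2, Mx2, Isg15, Usp18 and Rtp4 had none and were not searched. The core of the response element was searched as GAAA, any 2 bases and GAAA again, or as TTTC, any 2 bases and TTTC on the other strand. A gene counted if any of its windows held a match. The core was found in 19 of these 30 members (63.3%), against 4.12% of all genes with a window (3.92% of all 33469 windows). The letters TTCNNNGAA of the gamma-activated site, which read the same on both strands, were found in 8 members (26.7%), against 9.39% of all genes with a window (8.87% of all windows). Both kinds of match were found in 4 members and neither in 7. A match describes the letters only and does not show that a factor binds there. The stretches below belong to the members whose values are given array by array in the following paragraphs and whose window holds a match. Each ends at or before the last base upstream of the start, with 25 bases of flank where available and the matches in capitals. Irf7 lies on the minus strand at chr1:205800058-205800117, Ifih1 on the minus strand at chr3:67683993-67684052, and Ifit3 on the plus strand at chr1:241527257-241527316. Eif2ak2 lies at chr6:21941113-21941153, Gbp2 at chr2:234005671-234005726, Ifi27 at chr6:128355118-128355262 and Irf1 at chr10:38417768-38417826, all on the plus strand. Bst2 lies on the minus strand at chr16:18255058-18255129, and there the gamma-activated site overlaps the first of 2 response element cores that overlap each other. Oas1a and Trim21 also hold overlapping pairs of cores.
Irf7: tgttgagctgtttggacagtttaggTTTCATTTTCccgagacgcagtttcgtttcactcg
Ifih1: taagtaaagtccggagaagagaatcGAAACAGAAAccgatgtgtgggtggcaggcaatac
Ifit3: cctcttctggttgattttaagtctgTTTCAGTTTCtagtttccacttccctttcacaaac
Eif2ak2: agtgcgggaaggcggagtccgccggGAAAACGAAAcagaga
Gbp2: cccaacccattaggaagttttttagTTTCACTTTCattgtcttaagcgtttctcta
Ifi27: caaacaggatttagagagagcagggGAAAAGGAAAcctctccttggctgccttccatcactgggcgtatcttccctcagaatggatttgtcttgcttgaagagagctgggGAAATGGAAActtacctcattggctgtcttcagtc
Bst2: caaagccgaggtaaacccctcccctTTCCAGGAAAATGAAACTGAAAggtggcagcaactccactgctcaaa
Irf1: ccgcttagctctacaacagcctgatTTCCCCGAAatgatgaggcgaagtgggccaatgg

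Expression is given as log2 values per probeset. Probes differ in brightness, so levels were compared between arrays for the same gene and not between genes. All 16 blood endothelial markers with a probeset, among them Cdh5 and Pecam1, exceeded the brightest background probeset on all 6 arrays. Il33, the targeted gene, averaged 8.75 ± 0.94 over knockout and 15.59 ± 1.51 over wildtype animals (SD, n = 3 each), and it was the only gene called between genotypes (limma adjusted p = 0.0438). The male arrays stood apart from the female ones for most members, so results are also given for the females alone. They carried Ddx3y of the Y chromosome at 9.74 and 10.14, against 3.31 to 4.54 in the females. They also had the lowest signal of the 8 bacterial and phage transcripts added during preparation (8.82 and 8.91, against 9.33 to 10.42) and a higher 75th percentile of all probesets (7.44 and 7.39, against 6.99 to 7.14).

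The signal of 23 of the 35 members exceeded the brightest background probeset on every array. That of Ifi35, Zbp1, Oasl and Ifit1 exceeded it on none, and Irf7, Irf8, Mx1, Rsad2, Isg15, Usp18, Ifi44 and Rtp4 exceeded it on some arrays only. Differences in these 12 genes lie close to the background, where a log2 difference can understate a change. Ifi27 reached 19.26 on 1 array, near the top of the scale.

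No interferon-induced gene tested passed between genotypes. Each overlapped between knockout and wildtype animals, but in most the overlap was fixed by the high male in each genotype. The score per array, the mean log2 value over all 35 members, was 7.71, 7.92 and 8.65 for knockout 28, 27 and 52. It was 7.47, 7.76 and 8.63 for wildtype 34, 45 and 37. The male of each genotype was highest and the groups overlapped throughout. The score averaged 8.09 ± 0.49 over knockout and 7.95 ± 0.60 over wildtype animals (SD, n = 3 each), a difference of 0.14. Between the females the difference was 0.20 and between the males 0.024. Its sign turned on leaving out wildtype 34 (-0.10) or knockout 52 (-0.14). The difference was 0.48 without wildtype 37, 0.33 without knockout 28, 0.23 without knockout 27 and 0.047 without wildtype 45. Leaving out any array unbalances the sexes, and without 52 or 37 a genotype holds no male. These values therefore mix genotype with sex. Among the 3 arrays with low signal of the added transcripts the difference was -0.34, with female 27 and male 52 against male 37 alone. Among the other arrays, all female, it was 0.093. In bulk RNA fewer cells of a type and less RNA per cell cannot be told apart.

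**Figure D1:**
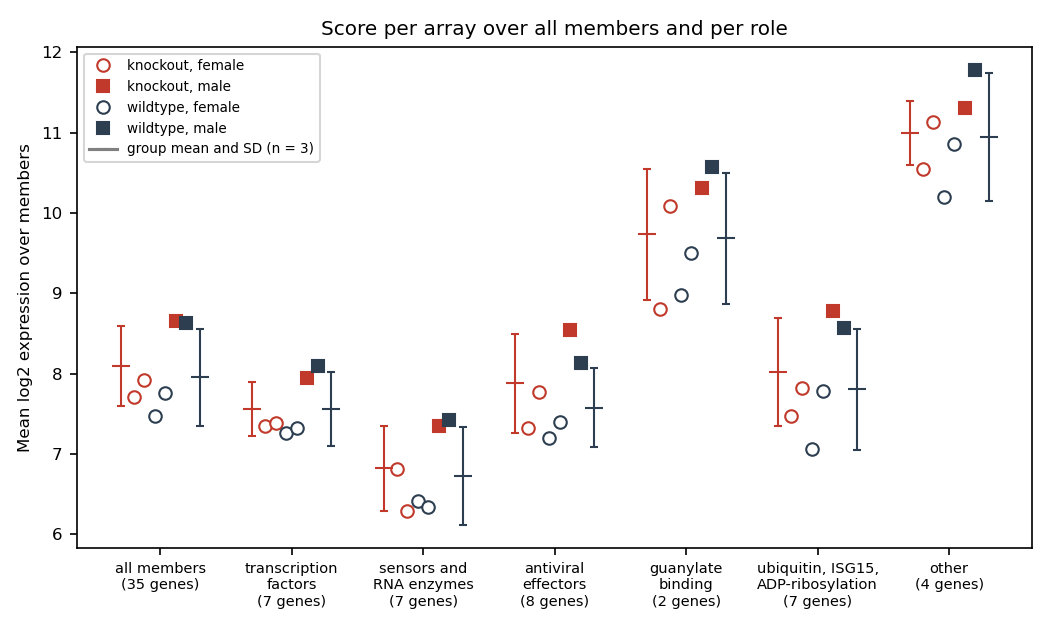
Mean log2 expression over all members and over each role group (horizontal axis, with the number of genes), for each of the 6 arrays; circles are females, squares males, and bars give the group mean and SD (n = 3). For all members both males lie at 8.65 and 8.63 and the 4 females between 7.47 and 7.92, while knockout and wildtype overlap.

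Of the 33 members tested 0 passed between genotypes at an adjusted p of 0.05 (limma, Benjamini-Hochberg over all genes), where 0.00864% of all genes tested did. At an unadjusted p under 0.05 there were also 0 members, against 1.98% of all genes. That fit left sex out, and the split by sex held more of the spread in members than in all genes. With sex as a covariate there were again 0 members, against 4.10% of all genes. In 0 members did all knockout arrays lie on 1 side of all wildtype arrays, against 6.25% of all genes. Each genotype held 1 male, so a gene with both males above all females overlaps between genotypes in any case. That was so for 20 of the 33 members, against 23.4% of all genes, and their overlap says nothing about genotype. The knockout mean was the higher one in 22 members, or for 54.0% of all genes. The median difference over the members was 0.19 on the log2 scale, against 0.033 over all genes. That median ran from -0.062 without knockout 52 and -0.0083 without wildtype 34 to 0.50 without wildtype 37. It was 0.37 without knockout 28 and 0.037 without wildtype 45, and -0.065 with the signal of the added transcripts as a block. As for the score, leaving out an array unbalances the sexes, and without 52 or 37 a genotype holds no male. The standard errors ran from 0.31 to 0.87, and the 95% intervals of the members reached from -2.23 to 2.33. The intervals of Stat2 (-1.0 to 0.39) and Sp100 (-0.51 to 0.95) were among the narrower ones.

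**Figure D2:**
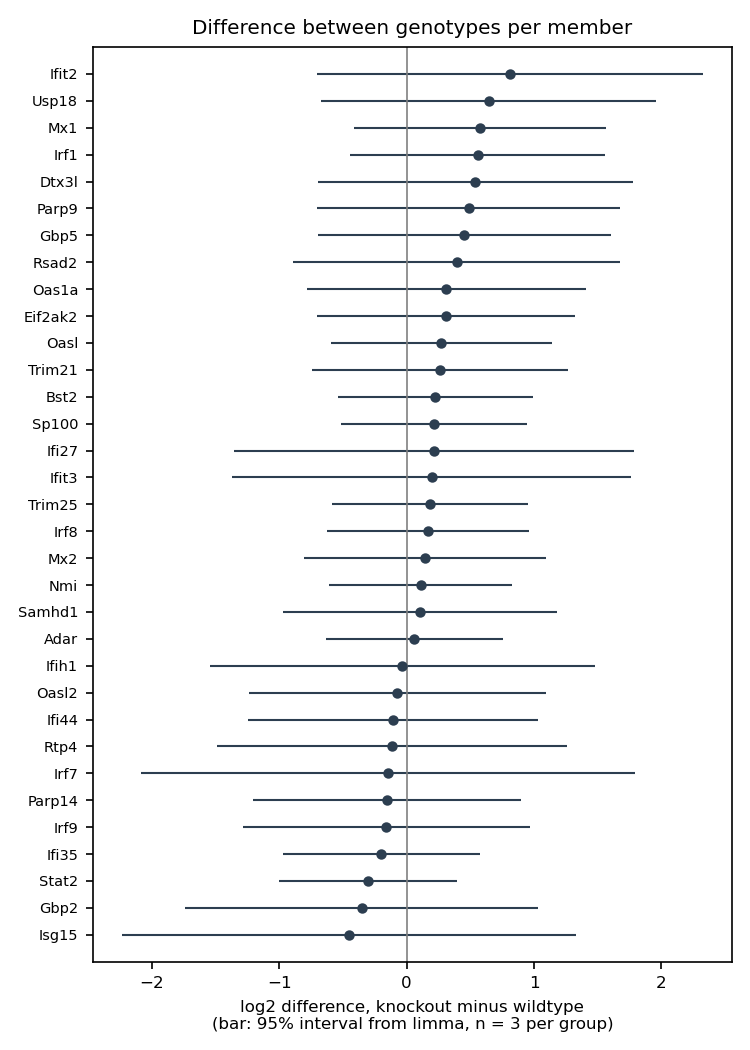
Difference in log2 expression, knockout minus wildtype (horizontal axis), for each of the 33 members tested, sorted by size; bars are 95% intervals from limma (n = 3 per group). Every interval spans 0, from Isg15 at -0.45 to Ifit2 at 0.81.

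Among the transcription factors, Irf7, which amplifies type I interferon production, varied most between animals. Its values were 5.21, 5.51 and 7.92 for knockout 28, 27 and 52 and 4.86, 6.19 and 8.03 for wildtype 34, 45 and 37. The male of either genotype was the highest array and the genotypes overlapped (difference -0.15, SE 0.87, limma unadjusted p = 0.869). Irf1, an early target of interferon gamma, was 13.67, 13.54 and 13.49 for the knockout animals and 12.56, 12.43 and 14.03 for the wildtype ones, in the same order. The female wildtype arrays lay below all knockout arrays and wildtype 37 above them. The difference of Irf1 was 0.56 (SE 0.45, limma unadjusted p = 0.239), made up of 1.11 between females and -0.54 between males. In the females alone its limma p was 0.0230 unadjusted and 0.904 adjusted, where 5.42% of all genes had an unadjusted p under 0.05. Irf9, the DNA-binding part of the type I complex, had means of 8.29 ± 0.81 and 8.45 ± 0.73, and its partner Stat2 of 6.52 ± 0.24 and 6.82 ± 0.07 (SD, n = 3 each). Irf8, a factor of myeloid cells, stayed between 4.70 and 5.65. Nmi, a Stat-binding protein, stayed between 9.27 and 9.85, and its partner Ifi35 between 3.29 and 4.19.

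The sensors and RNA enzymes overlapped between genotypes as well. Ifih1, which senses long double-stranded RNA, was 9.29, 7.67 and 9.91 for knockout 28, 27 and 52 and 8.87, 7.92 and 10.18 for wildtype 34, 45 and 37. Its difference was -0.033 (SE 0.67, limma unadjusted p = 0.962). Eif2ak2, the kinase that halts translation on double-stranded RNA, was 9.84, 9.89 and 10.72 against 9.69, 9.16 and 10.67, a difference of 0.31 (SE 0.45, limma unadjusted p = 0.508). The oligoadenylate synthetase Oas1a and its relatives Oasl and Oasl2 differed by 0.31, 0.27 and -0.073. Oas1a belongs to a family of similar neighbouring genes, so its probes may also report its copies. Adar, which edits double-stranded RNA, lay between 6.70 and 7.19 on all arrays. Zbp1, a sensor of Z-form nucleic acid, lay between 2.82 and 4.05, below the background median on all arrays.

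All 7 antiviral effectors tested had the higher mean in the knockout, and 0 of them passed. Ifit2, which binds viral and cellular RNA, had the largest difference of any member. It was 9.93, 10.05 and 10.87 for knockout 28, 27 and 52 and 7.73, 10.02 and 10.66 for wildtype 34, 45 and 37. The low wildtype mean came from wildtype 34, and the other arrays overlapped. The difference was 0.81 (SE 0.67, limma unadjusted p = 0.257), and without wildtype 34 it was -0.057. Its neighbour Ifit3 was 6.11, 7.13 and 8.80 against 6.74, 6.41 and 8.30, a difference of 0.20 (SE 0.70, limma unadjusted p = 0.784). Ifit1, of the same gene cluster, lay between 2.69 and 3.14 and was not tested. The GTPase Mx1 was 4.61 ± 0.78 against 4.04 ± 0.41 and its relative Mx2 6.66 ± 0.64 against 6.52 ± 0.50 (SD, n = 3 each). Rsad2, which makes a chain-terminating nucleotide, differed by 0.39 and Samhd1, which degrades nucleotides, by 0.10. Bst2, which tethers budding virus, was 15.94, 16.63 and 15.87 for the knockout animals against 15.81, 16.11 and 15.84 for the wildtype ones, a difference of 0.23 (SE 0.34, limma unadjusted p = 0.521).

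The guanylate binding proteins, which attack vacuoles of pathogens and respond strongly to interferon gamma, had opposite differences. Gbp2 was 9.92, 12.19 and 12.03 for knockout 28, 27 and 52 and 11.39, 11.26 and 12.55 for wildtype 34, 45 and 37. Knockout 28 alone was low, and the difference was -0.35 (SE 0.62, limma unadjusted p = 0.581) but 0.38 without that animal. With high or low signal of the added transcripts as a block, Gbp2 differed by -0.92 (limma unadjusted p = 0.0242, not passing after adjustment), where 2.76% of all genes had an unadjusted p under 0.05. Gbp5 differed by 0.45 (SE 0.51).

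Among the enzymes of the ubiquitin, ISG15 and ADP-ribosylation systems, Isg15, the ubiquitin-like protein itself, was 3.49, 2.84 and 5.45 for knockout 28, 27 and 52 and 2.74, 5.02 and 5.38 for wildtype 34, 45 and 37. It was high in both males and in wildtype 45 and low in the other females, with a difference of -0.45 (SE 0.79, limma unadjusted p = 0.581). Usp18, which removes ISG15 and restrains the type I receptor, was 4.85, 5.12 and 6.30 against 3.74, 4.64 and 5.96, a difference of 0.64 (SE 0.59, limma unadjusted p = 0.300). That difference ran from 0.12 without wildtype 34 to 1.23 without wildtype 37, which leaves no wildtype male. Parp9, an ADP-ribosyltransferase, was 9.82, 10.85 and 11.47 against 9.51, 10.03 and 11.14, a difference of 0.49 (SE 0.53, limma unadjusted p = 0.381). Its partner Dtx3l, a ubiquitin ligase encoded beside it, differed by 0.54, and Parp14, from the same stretch of the genome, by -0.15. The ligases Trim25 and Trim21 differed by 0.19 and 0.26.

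Of the other members, Ifi27, an interferon-induced membrane protein, was 17.47, 18.07 and 17.85 for knockout 28, 27 and 52 and 15.92, 17.56 and 19.26 for wildtype 34, 45 and 37. The wildtype animals held both the lowest and the highest value. Its difference was 0.22 (SE 0.70, limma unadjusted p = 0.763), made up of 1.03 between females and -1.41 between males. Sp100, a nuclear body protein, was 15.21, 14.52 and 14.75 against 14.69, 14.65 and 14.49, a difference of 0.22 (SE 0.33, limma unadjusted p = 0.522). Ifi44 and Rtp4 differed by -0.11 and -0.12.

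**Figure D3:**
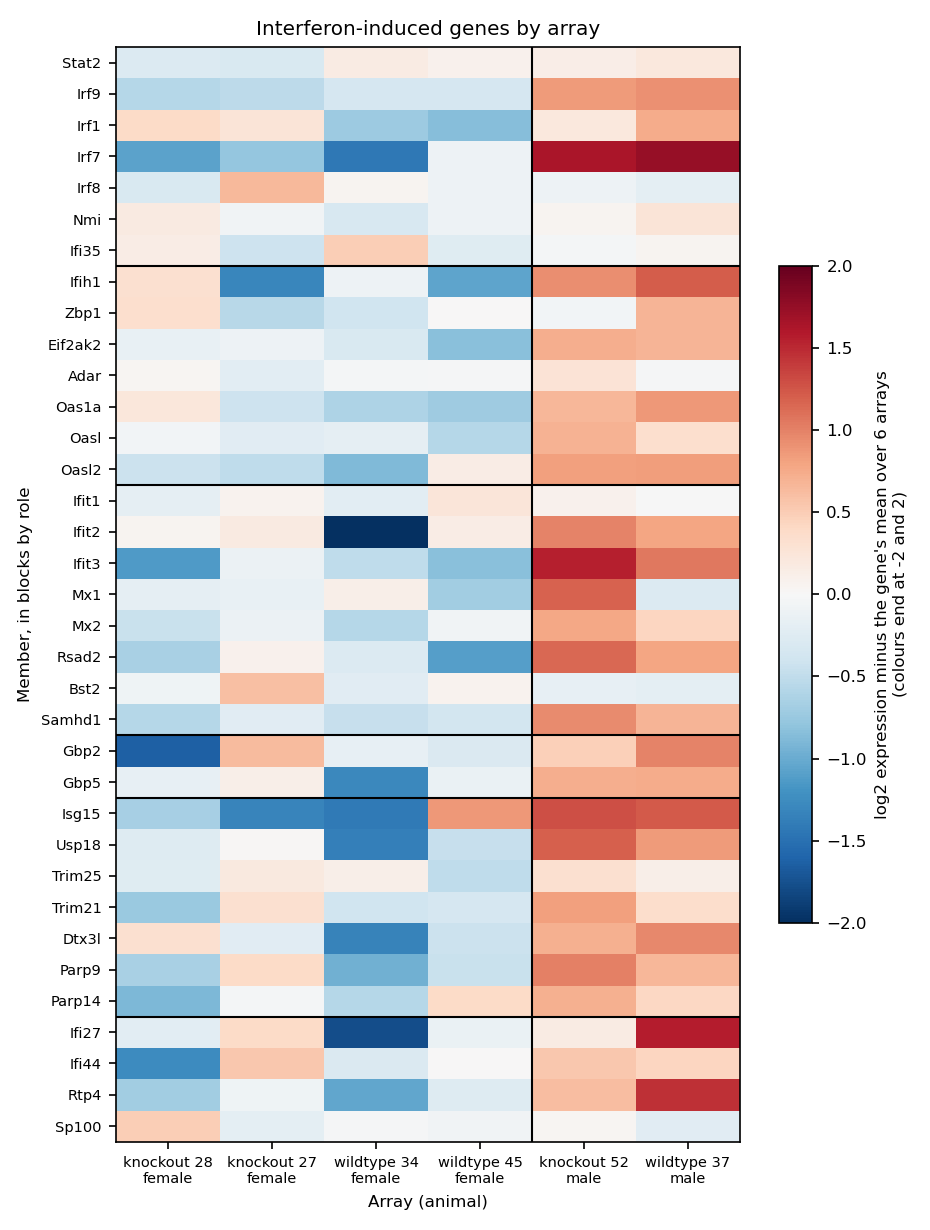
Log2 expression of the 35 members on each array minus the gene's mean over the 6 arrays (colour), in blocks by role, with females left and males right of the vertical line. Irf7, Ifit3, Isg15 and Usp18 are high in both males, whereas Bst2, Sp100, Stat2 and Adar vary little.

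The spread among animals was unevenly shared between members. The 8 members with the largest SD (Irf7, Isg15, Ifit2, Ifi27, Ifit3, Ifih1, Gbp2 and Usp18) held 52.2% of the summed squares of all 35, and Irf7 alone held 10.05%. Adar, Ifit1, Nmi, Stat2 and Sp100 held 0.13%, 0.16%, 0.24%, 0.28% and 0.36%. The median SD over the 6 arrays was 0.68 for members tested and 0.47 for all genes tested. The split by genotype held 6.1% of the members' sum of squares and the split by sex 62.8%, against 15.4% and 38.3% for all genes tested. Any split of 6 arrays holds some share, so these values are descriptions. Wildtype 34 was the lowest array for 14 members, among them Ifit2, Ifi27, Dtx3l, Gbp5 and Usp18. That array also had the highest median of the keratinocyte markers (12.64, against 7.39 to 9.88 on the others). With that median as a covariate, added after the data were seen, the score differed by -0.19 between genotypes and the median difference over the members was -0.061, with 0 members called.

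Most interferon-induced genes were higher in both males than in all females, in knockout and wildtype alike, but 0 of 33 passed the test for sex over all genes (limma with genotype and sex; smallest adjusted p = 0.0655), where 0.0259% of all genes did. The male mean was the higher one in 30 of the 33 members, against 61.5% of all genes. In 20 members both males lay above all 4 females, against 23.4% of all genes, and in 0 members below, against 8.29%. Their median difference, male minus female, was 1.10 on the log2 scale, and that of all genes 0.18. At an unadjusted p under 0.05 there were 19 members higher in males, against 14.7% of all genes, and 0 lower, against 3.84%. Of the 19, 5 each were sensors and RNA enzymes, antiviral effectors, and enzymes of the ubiquitin group. The comparison rests on 2 males, 1 of each genotype.

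Irf7 had the largest difference by sex, with a mean of 5.44 over the females and of 7.97 over the males (difference 2.53, SE 0.41, limma unadjusted p = 1.30e-04, limma adjusted p = 0.0655). The females ran from 4.86 to 6.19 and the males were 7.92 and 8.03, so the sexes did not overlap. Ifit3 followed with a difference of 1.95 (SE 0.38, adjusted p = 0.114) and Isg15 with 1.89 (SE 0.58, adjusted p = 0.161). Ifih1 differed by 1.61, Rtp4 by 1.56, Usp18 by 1.54, Rsad2 by 1.46 and Irf9 by 1.33. Samhd1, Oasl2, Parp9, Dtx3l, Oas1a, Eif2ak2 and Gbp5 differed by 1.05 to 1.25, each with both males above all females. Irf7, Rsad2, Usp18 and Rtp4 did not exceed the brightest background probeset in some or all of the females, and Isg15 exceeded it in knockout 52 alone, so the order of these sizes is uncertain. Bst2 (-0.27), Irf8 (-0.22) and Sp100 (-0.15) had the lower mean in males, and Adar, Nmi, Stat2, Trim25 and Ifi35 differed by 0.010 to 0.33. The highest array was a female one for Irf8, Ifi35, Ifit1, Bst2 and Sp100, and for Ifi44 a female and a male tied.

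The size of the sex difference varied with the scaling and with the signal of the added transcripts, in settings chosen after the data were seen. A second quantile normalization brought the median over the members to 0.78 and that of all genes to 0.060, with 13 members higher at an unadjusted p under 0.05 against 7.26% of all genes. Centring on array medians gave 1.20 and 0.28, and Irf7 then passed (limma adjusted p = 0.0346). With the mean of the added transcripts as a covariate the median was 0.54 and Ifih1 alone had an unadjusted p under 0.05; Gbp2, Ifi27, Trim21, Parp9 and Sp100 then had the other sign. Among the 3 arrays with low signal of the added transcripts, both males exceeded female 27 on average in 30 of 33 members, by a median of 0.61 against 0.145 for all genes. Sex and the signal of the added transcripts cannot be told apart with 2 males that are also the lowest in that signal. Leaving out knockout 52 gave 13 members at an unadjusted p under 0.05 (7.99% of all genes) and leaving out wildtype 37 gave 8 (4.22%), with medians of 1.23 and 0.90; the lone male is then assumed to vary like the females. Without knockout 27 Irf7 passed (adjusted p = 0.0498).

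**Figure D4:**
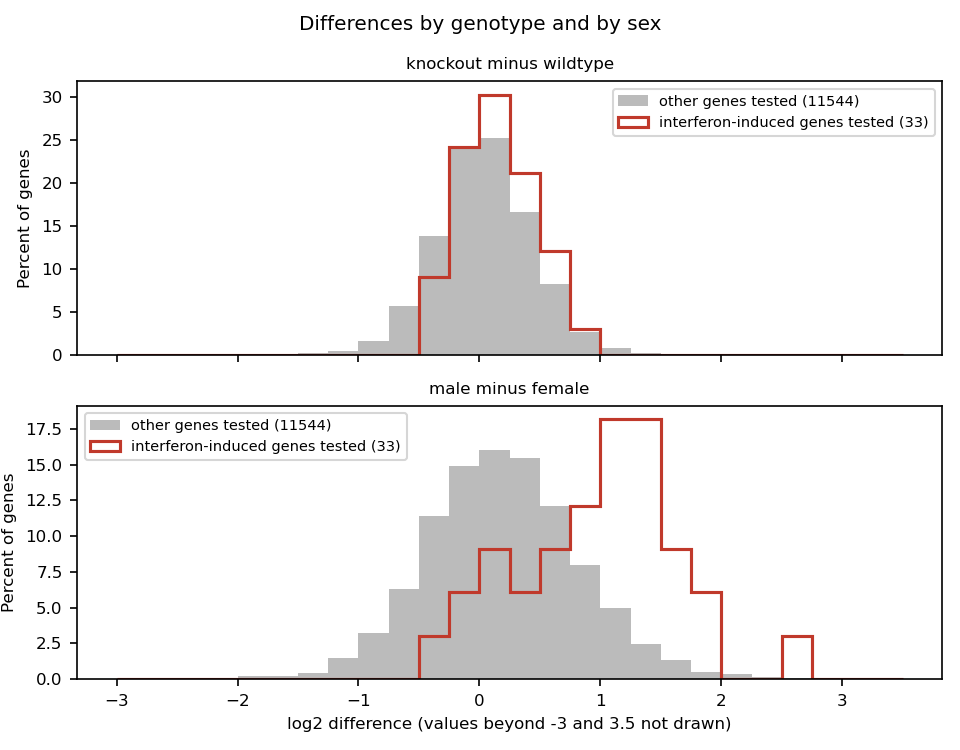
Share of genes (vertical axis, percent) by log2 difference (horizontal axis) between knockout and wildtype (top) and between males and females (bottom), for the 33 interferon-induced genes tested (red outline) and all other genes tested (grey). The medians of the members and of all genes are 0.19 and 0.033 by genotype and 1.10 and 0.18 by sex.

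The difference between the genotype effects of the sexes passed the test in 0 of the 33 members (limma interaction, smallest adjusted p = 0.999), as in 0% of all genes. At an unadjusted p under 0.05 there were 2, Ifi27 (0.0420) and Irf1 (0.0428), against 1.03% of all genes. In both the knockout mean was higher in females and lower in the male pair, where each genotype is a single animal.

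Promoter matches were found in members with and without a difference by sex. Both males lay above all females in 11 of the 16 tested members with a response element core and in 4 of the 11 tested members whose window had none, and the median differences were 1.12 and 0.68. Tested members without a window are in neither group. Among them are Isg15, Usp18, Ifit2, Mx2 and Rtp4, in each of which both males lay above all females. Bst2, with 2 cores and a gamma-activated site, differed by -0.27, whereas Irf9, with a gamma-activated site alone, differed by 1.33.

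Other genes of the interferon system had 0 calls between genotypes. The median male minus female difference was 0.60 over 9 receptor, kinase and shared factor genes and 0.22 over 10 sensors and relays. It was 0.73 over 10 genes of a list of brakes on interferon signalling, which also holds the ISG15 enzyme Ube2l6. The 5 interferon genes tested lay below the brightest background probeset on all arrays, among them Ifnb1, the fibroblast interferon, at 3.13 to 4.50, and Ifna4, Ifnk and Ifna5, so no difference was read from them. Among 9 receptor, kinase and shared factor genes 0 passed, with a median difference of 0.22 between genotypes. Stat3, a factor of many cytokine receptors, did not overlap between genotypes, with means of 14.47 in the knockout and 13.72 in the wildtype (limma unadjusted p = 0.0520), Jak1 differed by -0.21 and Ifngr1, a chain of the interferon gamma receptor, by -0.10. Among the 10 genes of the brakes list 0 passed, and Ptpn6, a phosphatase best known in blood cells, did not overlap either. Its means were 4.94 in the knockout and 5.65 in the wildtype (limma unadjusted p = 0.0445, adjusted p = 0.999). Socs3, Pias1 and Pias2 in this group differed by 0.29, 0.34 and 0.49. Among 10 sensors and relays that lead to interferon production 0 passed, with differences of -0.40 for Irf3, 0.083 for Tbk1 and 0.36 for Tlr4. Dhx58, a helper of RNA sensing, did not overlap between genotypes, with 5.08, 5.37 and 4.84 for knockout 28, 27 and 52 against 4.26, 4.42 and 4.81 for wildtype 34, 45 and 37, close to background (limma unadjusted p = 0.0999). Such gaps, as in Stat3, Ptpn6 and Dhx58, occurred in 6.25% of all genes.

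A wider list of 41 further interferon-induced genes had 0 calls and a median difference of 0.077 between genotypes. Its brightest members Ifitm3, B2m and Ly6e differed by 0.033, 0.027 and 0.48; Ifitm3 and B2m lay near the top of the scale, where a difference can be hidden. By sex 0 passed, 17 of the 41 were higher in males at an unadjusted p under 0.05 (14.7% of all genes) and 0 lower (3.84%), and in 22 both males lay above all females (23.4%). The genes named next were picked after their values were seen. Apol9a ran from 7.82 to 9.66 over the females and was 11.94 and 12.10 in males 52 and 37 (difference 3.35, limma adjusted p = 0.0655). The chemokine Cxcl10, which attracts T cells, was 10.16, 13.02, 10.21 and 10.90 in females 28, 27, 34 and 45 and 13.86 and 13.95 in the males (difference 2.83, limma adjusted p = 0.128). Female 27 came near the males in Cxcl10. Of the brakes list, Ube2l6, the conjugating enzyme of ISG15, had means of 5.74 in females and 7.49 in males (difference 1.75, limma adjusted p = 0.114).

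Markers of other cell types were read on the same arrays beside the sex difference, and their part in it was not tested. The median of 9 general leukocyte markers was 4.35 to 5.10 over the females and 3.99 and 4.05 for the males. By genotype it ran from 4.05 to 4.41 for knockout and from 3.99 to 5.10 for wildtype animals. Of these 9 markers 1 exceeded the brightest background probeset on all arrays and 3 lay at or below the background median on all. That one, the actin-bundling Lcp1, had the higher values in the males (10.08 and 10.44, against 9.29 to 9.74; limma unadjusted p = 0.0448), whereas Ptprc, which encodes CD45, was 5.28 to 7.72 in the females and 4.59 and 3.99 in the males. Of the 8 leukocyte markers tested, 3 were lower and 1 higher in males at an unadjusted p under 0.05, against 3.84% and 14.7% of all genes. After adjustment 0 passed.

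The median of the macrophage and dendritic cell markers was 3.96 to 4.71 in the females and 3.55 and 3.79 in the males. Of these 14 markers 4 exceeded the brightest background probeset on all arrays and 6 lay at or below the background median on all. The medians therefore lie close to background. Of the 9 tested, 2 were lower in males at an unadjusted p under 0.05 (3.84% of all genes), namely Cd74 and Mrc1. Only Cd14, a receptor for bacterial lipid, was higher (14.7%). Cd74 averaged 8.89 over the females and 6.54 over the males (limma unadjusted p = 0.0034, adjusted p = 0.136). Cd14 averaged 4.82 over the females and 6.32 over the males (limma unadjusted p = 0.0018, adjusted p = 0.117). In every female Cd14 lay below the brightest background probeset. The median of 6 markers of plasmacytoid dendritic cells was 4.37 to 6.23 in the females and 3.64 and 4.19 in the males, and Il3ra among them was higher in both males (difference 0.68). Only Il3ra and Tcf4 (difference 0.018) of the 6 exceeded the brightest background probeset on all arrays, and neither had the lower mean in males. Among lymphatic endothelial markers Ccl21, a chemokine of lymphatic vessels, was lower in the males, with a mean of 16.01 over the females and 11.52 over the males (limma adjusted p = 0.0322). Pdpn and Reln differed by -2.94 and -2.54 (limma adjusted p = 0.0655 each). In 5 of the 6 lymphatic markers tested both males lay below all females, against 8.29% of all genes. The blood endothelial median was 14.29 to 14.88 in the females and 14.49 and 14.62 in the males. Of 16 blood endothelial markers 2 were higher in males at an unadjusted p under 0.05 (14.7% of all genes) and 0 lower (3.84%). In 5 of them both males lay above all females (23.4%). Medians of the pericyte and smooth muscle markers were 8.36 to 10.19 and 9.73 to 9.87 in females and males, and keratinocyte medians 7.52 to 12.64 and 7.39 to 7.90. Of 9 keratinocyte markers 7 were lower in males at an unadjusted p under 0.05 (3.84% of all genes). Of 11 pericyte and smooth muscle markers 4 were higher (14.7%), namely Acta2, Tagln, Myh11 and Des. In the same list Kcnj8, Abcc9 and Cspg4 had the lower mean in males.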

How the data were processed

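Biotin-labelled DNA made from total RNA of 6 sorted cell samples was read on 1 Affymetrix array per animal, per the labels' protocols. The authors' deposited log2 values come from RMA, which the submitters' processing notes name beside Affymetrix Expression Console, without versions or a genome build. That the scale is log2 is read from RMA and from the range of values, and the unit of every difference rests on it. The values were used without further scaling. Of 24834 probesets, 15049 had 1 gene symbol and 1646 were controls. The brightest probeset of a gene was kept, and a gene was tested if its mean reached 3.51, the 25th percentile of probesets other than controls. Genotypes were compared by limma 3.58.1 (in R 4.3.3), two-sided, with Benjamini-Hochberg adjustment over all genes; the sex test added genotype as a term. With 3 animals a side, exact permutation reaches no p below 0.1 and was not used. Nothing says whether cells were pooled. The p-values measure the spread between these samples, after limma drew each gene's variance toward a value shared by all genes. Standard errors and intervals of members with little spread, such as Adar, rest partly on that shared value. The number of arrays limits the precision. The members, gene lists and motifs were chosen with earlier results of these data known. Values on all arrays are given for the 6 members of highest mean, the 8 of largest SD and the brightest of each role. From the other interferon lists the 3 genes of highest mean and any with an unadjusted p under 0.05 between genotypes are named. Genes of those lists whose genotypes did not overlap are named too, which was not planned at the outset. Correlations with the score were planned at the outset. Those of the members were computed, and none is reported because the male arrays form a cluster of their own. The tests were tried on simulated data. Alternatives were other filters, scalings, covariates and moderation, females only and leaving out each array.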

Additional observations from a re-analysis of the deposited data

How the results depend on the processing

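The number of members called between genotypes was 0 under all 17 alternatives. At an unadjusted p under 0.05 it was 1 in females only (Irf1), 1 with the added-transcript signal as a block (Gbp2), and 0 to 4 on leaving out single arrays; the 4, without wildtype 37, were Irf1, Ifit2, Usp18 and Dtx3l. The share of all genes under that p was 5.42%, 2.76% and, without wildtype 37, 8.37%. That last setting leaves a male in the knockout group only, so its 4 members and its share mix genotype with sex. Of 156 differences of the named members under the alternatives, 0 passed and 18 had the other sign. On leaving out single arrays the difference ran from -0.76 to 0.38 for Gbp2, -1.0 to 0.69 for Irf7, -0.61 to 1.06 for Ifi27, -0.057 to 1.41 for Ifit2, -0.53 to 0.82 for Ifit3, -0.57 to 0.61 for Ifih1, -1.27 to 0.090 for Isg15, -0.030 to 0.73 for Eif2ak2 and -0.015 to 0.36 for Bst2. Without a turn of sign it ran from 0.12 to 1.23 for Usp18, 0.11 to 0.94 for Parp9, 0.27 to 1.07 for Irf1 and 0.025 to 0.37 for Sp100. Ifih1 was 0.085 in females only and Gbp2 0.040 with array weights. The score and the median difference moved by less than the SD within genotypes throughout, and their sign turned in the settings given with them. That SD includes the gap between males and females, so it is a loose measure and does not show that the values are stable. Among the 4 females the SD of the score was 0.19, less than its move from 0.14 to 0.48 without wildtype 37.

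For sex 0 to 1 member was called on leaving out single arrays, and 1 with centring. Irf1 then ran from -0.12 to 1.54, the lowest without wildtype 37. With the added-transcript covariate Gbp2 was -1.28, Trim21 -0.15, Parp9 -0.051, Ifi27 -0.55 and Sp100 0.60. The other scalings of the sex test and every use of the added-transcript signal were chosen after seeing the data. The causes were not tested. No paired analysis was possible because the genotypes share no animal numbers.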
